A study of Mus musculus with 6 samples.

Results

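The steroid hormone receptors of the uterus and the proteins that work with them were followed here through 9 genes, taken by name. They are the nuclear receptors *Esr1*, *Esr2*, *Pgr*, *Nr3c1* and *Nr3c2*, the progesterone-binding membrane protein *Pgrmc1*, the cochaperone *Fkbp4*, and the coactivators *Ncoa1* and *Ncoa2*. All 9 were found by identifier among the 56748 genes of each deposited table. Of the 9, 8 had enough reads to pass edgeR's filter on low counts, which kept 16605 genes, and *Esr2* did not.

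Steroid hormones cross the cell membrane and bind nuclear receptors, which then bind DNA at target genes and recruit coactivators or corepressors. Before the hormone arrives, receptors of this family are held by HSP90 and cochaperones, among which FKBP4 (FKBP52) serves the progesterone receptor. Around implantation in the mouse, ovarian estrogen and progesterone act through ERα and PGR in the epithelium and the stroma of the uterus, and estrogen induces LIF, which signals through GP130 and STAT3.

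RNA from the whole uterus was sequenced in 3 control and 3 *Gp130* ecKO libraries from day 4 of pregnancy at 1600 h, each called a uterus here. The *Gp130* ecKO females carried 1 *Ltf*-iCre allele and *Gp130* flanked by loxP sites on both alleles, and were labelled conditional knockouts. Control females were labelled WT, and the study's methods describe its controls as floxed females without iCre or as wildtype females. Both groups were labelled as C57BL/6 and were mated with fertile wildtype males. The iCre sits in the lactoferrin gene, which is used by the uterine epithelium and also by a subset of neutrophils and macrophages, so *Gp130* may also be deleted in those cells. Nothing in the labels states that each library came from a separate animal, so the p-values measure the spread between these libraries. In RNA of a whole organ, fewer cells of a type and less RNA per cell cannot be told apart.

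Total expected counts ranged from 13960748 in control 3 to 25906443 in control 2. Levels are given as CPM, counts per 1000000 counts of the TMM-scaled library. Control 2 stood apart from its group. A multidimensional scaling on the 500 genes that differ most between libraries put it at 0.03 along dimension 1, between controls 1 and 3 (2.09 and 2.08) and the mutants (−1.47 to −1.32), so values without it accompany those of the 9 genes. The deleted gene, listed as *Il6st*, reached 452 to 678 CPM in the controls against 349.8 to 388 CPM in the mutants, without overlap. It had a log2 fold change of −0.68 (95% interval −1.17 to −0.19), with an adjusted p of 0.120 in edgeR's quasi-likelihood test and of 0.0346 in DESeq2, the lowest over the alternatives.

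Marker genes of cell types were read beside the receptors. In edgeR's quasi-likelihood test, 0 of the 8 epithelial, 8 stromal and 4 endothelial markers passed an adjusted p of 0.05, where 0.157% of all tested genes did, and at an unadjusted p under 0.05 there were 4 of each, where 25.0% of all tested genes were. Of all tested genes, 15.7% were higher and 15.6% lower in *Gp130* ecKO without overlap. The summed CPM of 8 epithelial markers was 2241 to 3942 in the controls and 5446 to 7190 in *Gp130* ecKO, and 5 of the 8 were higher without overlap, while *Epcam* overlapped at a log2 fold change of −0.19. For *Krt8* and *Cdh1* on this list, the study reports more protein in the mutant epithelium, so the sum need not follow the number of epithelial cells. The 8 stromal markers summed to 4150 to 5544 in the controls and 2352 to 3568 in *Gp130* ecKO, with 5 of the 8 lower without overlap. The 4 endothelial markers summed to 307 to 744 and 169 to 305, and 3 of the 4 were lower without overlap. Smooth muscle markers overlapped, at 568 to 2781 and 475 to 2994 for 6 genes, as did 6 leukocyte markers, at 154 to 190 and 146 to 223. The sum of the 5 glandular markers was 1078 in control 1, 8690 in *Gp130* ecKO 1 and between 104 and 175 in the other 4 uteri. *Prss29*, *Prss28* and *Spink1* held most of it, at 523, 178 and 327 CPM in control 1. In *Gp130* ecKO 1 they were at 6546, 1876 and 219 CPM. *Foxa2* and *Wfdc3* were both highest in *Gp130* ecKO 3, at 43.4 and 61.5 CPM. Of 6 ovary and oviduct markers, *Ovgp1* alone was tested and rose from 47.9, 85.3 and 50.6 CPM to 615, 1193 and 552, with a log2 fold change of 3.68 and an adjusted p of 0.0377 in the same test. The other 5 were below 0.74 CPM in each uterus, with *Fshr* and *Cyp19a1* at 0. The exact test called 3 epithelial, 2 stromal and 2 endothelial markers, the likelihood ratio test the same numbers, and DESeq2 4, 2 and 3, with 8.99%, 9.50% and 13.4% of all tested genes called, respectively. The part of these values in those below was not tested.

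**Figure D1:**
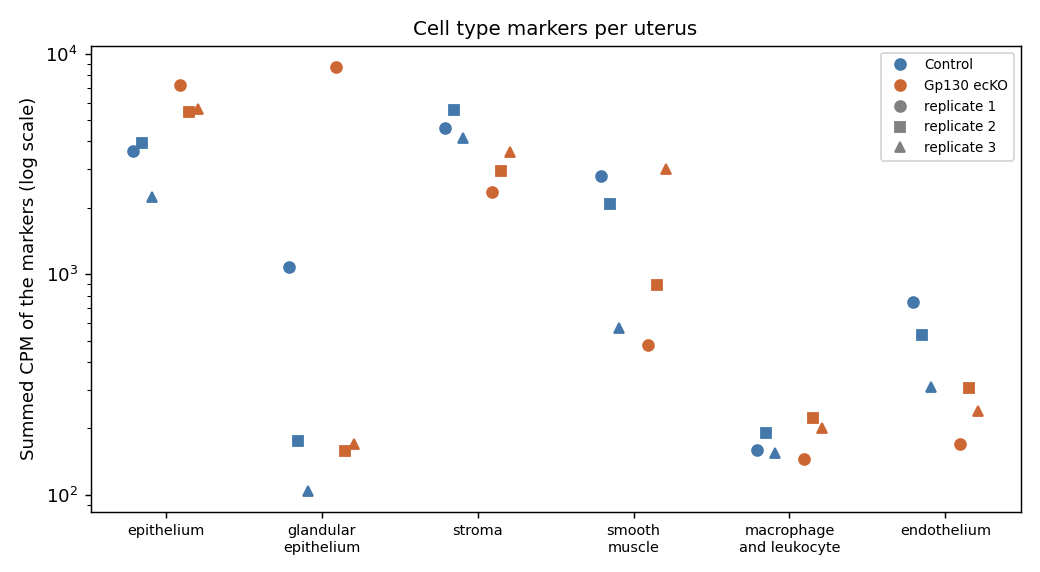
Summed CPM of each marker list, on a log axis, for every uterus, with the replicate number as the symbol and the group as the colour. Epithelial sums were higher (5446 to 7190 against 2241 to 3942) and stromal sums lower (2352 to 3568 against 4150 to 5544) in *Gp130* ecKO, and smooth muscle sums overlapped.

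To place sequence beside the values, promoters of the mouse from RefSeq on GRCm38.p6 were searched on both strands. Each window covers 250 bases before and 50 bases after an annotated start. Of the 9 genes, *Nr3c1* was left out of this search. Of the others, 7 had an entry, with 8 windows because *Esr1* has a pair of starts, and *Ncoa2* was not matched. The motifs were TTCNNNGAA for STAT factors, AGGTCA, any 3 bases and TGACC for a full estrogen response element, its arm AGGTCA alone, which the full element contains, and GNACA, any 3 bases and TGTNC for the element shared by PGR, the glucocorticoid receptor and the mineralocorticoid receptor. Among all 32851 promoters, these letters occurred in 8.30%, 0.0548%, 16.3% and 0.475%, respectively. In the 8 windows there was 1 match, a STAT motif in the second *Esr1* window, which begins 188 bases before the start. The 250 bases before the start are shown for the 3 genes whose groups did not overlap, with the motif in capitals, as a way to choose among the windows.
Esr1, chr10:4611739-4611988, plus strand: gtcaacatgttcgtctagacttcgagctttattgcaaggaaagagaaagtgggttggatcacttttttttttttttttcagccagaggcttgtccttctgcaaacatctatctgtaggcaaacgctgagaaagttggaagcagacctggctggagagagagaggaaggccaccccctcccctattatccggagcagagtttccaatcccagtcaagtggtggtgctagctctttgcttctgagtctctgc
Esr1, chr10:4709908-4710157, plus strand: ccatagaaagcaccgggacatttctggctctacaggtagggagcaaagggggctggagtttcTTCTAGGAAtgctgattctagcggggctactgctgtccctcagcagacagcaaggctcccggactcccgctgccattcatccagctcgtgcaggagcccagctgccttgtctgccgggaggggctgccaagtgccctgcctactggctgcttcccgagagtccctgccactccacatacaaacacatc
Esr2, chr12:76177260-76177509, minus strand: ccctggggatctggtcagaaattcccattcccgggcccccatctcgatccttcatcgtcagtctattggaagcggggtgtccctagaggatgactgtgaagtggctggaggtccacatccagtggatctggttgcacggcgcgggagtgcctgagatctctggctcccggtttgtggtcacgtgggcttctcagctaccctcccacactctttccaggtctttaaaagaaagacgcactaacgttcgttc
Pgrmc1, chrX:36597943-36598192, plus strand: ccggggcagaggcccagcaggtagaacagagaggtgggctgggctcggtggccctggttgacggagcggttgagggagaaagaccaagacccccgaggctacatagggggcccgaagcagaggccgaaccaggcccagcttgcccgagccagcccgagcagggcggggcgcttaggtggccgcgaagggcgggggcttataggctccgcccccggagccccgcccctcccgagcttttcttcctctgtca
Over the whole windows the GC content was 46.3% and 59.3% for the *Esr1* windows, 56.0% for *Esr2* and 69.0% for *Pgrmc1*, beside a median of 52.7% over all promoters. A match describes letters only, and a window without one says nothing about binding of a factor.

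To compare genes with each other, the deposited TPM was used, which is scaled for transcript length. In both groups *Fkbp4* had the highest TPM (500 ± 110 in the controls and 832 ± 197 in *Gp130* ecKO, SD, n = 3) and *Pgrmc1* the next (168 ± 36.0 and 302 ± 83.1). *Esr1* followed at 58.7 ± 12.5 and 174 ± 21.5, then *Pgr* at 25.7 ± 14.5 and 45.9 ± 7.72. Below them came *Ncoa2* at 13.1 ± 2.56 and 21.4 ± 8.92, *Nr3c1* at 10.1 ± 1.03 and 9.46 ± 3.07, and *Ncoa1* at 5.85 ± 1.32 and 7.25 ± 3.39. *Nr3c2* was at 0.38 ± 0.167 and 0.94 ± 0.305, and *Esr2* was lowest, listed at 0, 0.05 and 0 in the controls and at 0.12, 0.24 and 0.75 in *Gp130* ecKO. The order by mean was the same in both groups. Neighbours whose ranges overlapped were *Pgr* and *Ncoa2* and also *Ncoa2* and *Nr3c1* in the controls, and *Ncoa2* and *Nr3c1*, *Nr3c1* and *Ncoa1*, and *Nr3c2* and *Esr2* in *Gp130* ecKO. Even so, each pair of neighbours kept its order within every single uterus, except *Nr3c2* above *Esr2*, which held in 2 of the 3 *Gp130* ecKO uteri.

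Transcripts of *Esr1* (ENSMUSG00000019768, GRCm39 chr10:4561593-4955626, plus strand), which encodes ERα, the main estrogen receptor of the uterus, were 2.67-fold more abundant in *Gp130* ecKO. Controls 1, 2 and 3 had 277, 332 and 205 CPM, and *Gp130* ecKO 1, 2 and 3 had 773, 693 and 709 CPM. The groups were far apart, and the *Gp130* ecKO uteri were close together, at 725 ± 42.5 against 271 ± 63.9 (SD, n = 3). The log2 fold change was 1.42 (standard error, SE, 0.23, 95% interval 0.89 to 1.95), and the adjusted p of 0.0548 in edgeR's quasi-likelihood test missed the threshold of 0.05. By unadjusted p, *Esr1* ranked 100th of the 16605 tested genes. The call depended on the test, as edgeR's exact test gave an adjusted p of 0.000166 and DESeq2 one of 9.82e-07. It also depended on control 2, without which the quasi-likelihood test gave a log2 fold change of 1.62 and an adjusted p of 0.0233. With 3 uteri against 3, an exact two-sided permutation test cannot go below 0.1, the value it gave for *Esr1*. The study's own edgeR analysis lists *Esr1* as upregulated in the mutants. By immunostaining it reports more ERα-positive cells in the stroma beneath the epithelium, but not in the epithelium. Epithelial markers were higher and stromal markers lower in the same uteri, by the sums given above, and their part in the *Esr1* values was not tested.

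*Esr2* (ENSMUSG00000021055, GRCm39 chr12:76167193-76224033, minus strand), which encodes ERβ, was close to undetected. There were 0, 3 and 0 counts in the controls and 6, 12 and 47 in *Gp130* ecKO, which is 0, 0.116 and 0 CPM against 0.271, 0.461 and 1.95 CPM. The highest uterus, *Gp130* ecKO 3, held 72.3% of the *Gp130* ecKO counts, yet each *Gp130* ecKO uterus was above each control. Relative to library size, the pooled 65 against 3 counts made a ratio of 19.7 (exact 95% interval 6.45 to 97.9, counting error only), and without *Gp130* ecKO 3 the 18 against 3 counts made 8.19 (2.39 to 43.4). Fitted without the filter over 29916 genes, the log2 fold change was 4.18 (SE 1.18, adjusted p = 0.119, edgeR quasi-likelihood). That estimate moved to 7.36 without control 2, which held all of the control counts, and to 2.92 without *Gp130* ecKO 3.

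The level of *Pgr* (ENSMUSG00000031870, GRCm39 chr9:8899830-8968612, plus strand), the nuclear progesterone receptor and itself an estrogen-induced gene in parts of the uterus, varied widely among the controls. Its CPM was 57.2, 202 and 128 in the controls and 172, 203 and 272 in *Gp130* ecKO. The groups overlapped, since control 2 lay above *Gp130* ecKO 1. For the protein, the study reports comparable PGR staining in both groups. The log2 fold change was 0.74 (SE 0.42, 95% interval −0.25 to 1.73, adjusted p = 0.308, edgeR quasi-likelihood). The log2 fold change of *Pgr* was 1.26 without control 2 (adjusted p = 0.0980) and 0.41 without control 1. Within a uterus, the ratio of *Esr1* to *Pgr* CPM was 4.84, 1.65 and 1.60 in the controls and 4.50, 3.42 and 2.61 in *Gp130* ecKO. Control 1 held the highest ratio, so the groups overlapped, and the mean log2 ratio was higher by 0.55 in *Gp130* ecKO (p = 0.4, exact two-sided permutation test). Without control 1 it was higher by 1.08, without control 2 by 0.30, without control 3 by 0.28 and without *Gp130* ecKO 1 by 0.35.

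The receptors for adrenal steroids, which the uterus also expresses, had overlapping groups. *Nr3c1* (ENSMUSG00000024431, GRCm39 chr18:39543598-39652474, minus strand), the glucocorticoid receptor, had 44.5, 51.2 and 46.5 CPM in the controls against 37.0, 46.6 and 33.9 CPM in *Gp130* ecKO. It was the only one of the 8 tested genes with a negative log2 fold change, −0.28 (95% interval −0.70 to 0.15, adjusted p = 0.370, edgeR quasi-likelihood), and the groups overlapped. *Nr3c2* (ENSMUSG00000031618, GRCm39 chr8:77625576-77971863, plus strand), the mineralocorticoid receptor, was scarce, with 60, 47 and 12 counts in the controls and 71, 59 and 65 in *Gp130* ecKO. In CPM it was 2.43, 1.81 and 0.800 against 3.21, 2.27 and 2.69, again with overlap, and the log2 fold change was 0.66 (95% interval −0.37 to 1.68, adjusted p = 0.379). Without control 2 the log2 fold changes were −0.18 for *Nr3c1* and 0.71 for *Nr3c2*. *Nr3c1* was at −0.42 without *Gp130* ecKO 2 and −0.15 without *Gp130* ecKO 3, and *Nr3c2* at 1.01 without control 1 and 0.36 without control 3. The ratio of *Nr3c1* to *Nr3c2* CPM was 18.3, 28.3 and 58.2 in the controls and 11.5, 20.5 and 12.6 in *Gp130* ecKO, where the 12 counts of *Nr3c2* in control 3 set the highest ratio. The difference in mean log2 ratio was −1.11 (p = 0.2, exact two-sided permutation test), and −0.66 without control 3. In TPM the ratio was 16.8, 26.2 and 53.3 in the controls and 8.06, 11.2 and 11.6 in *Gp130* ecKO, without overlap, and the difference was −1.50 (p = 0.1, the smallest the exact test allows). TPM divides by the estimated length, which for *Nr3c2* was 4208 and 3051 bases in *Gp130* ecKO 1 and 2, on 71 and 59 counts, and 5675 to 5749 bases in the other uteri.

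*Pgrmc1* (ENSMUSG00000006373, GRCm39 chrX:35861524-35869737, plus strand) encodes a heme-binding membrane protein linked to progesterone responses outside the nuclear receptor. Its CPM was 237, 284 and 174 in the controls and 474, 387 and 302 in *Gp130* ecKO, and each *Gp130* ecKO uterus was above each control. The log2 fold change was 0.74 (SE 0.25, 95% interval 0.16 to 1.33), with an adjusted p of 0.137 from edgeR's quasi-likelihood test. Without control 2 it was 0.95 with an adjusted p of 0.0892. No alternative brought its adjusted p below 0.0576.

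*Fkbp4* (ENSMUSG00000030357, GRCm39 chr6:128406698-128415665, minus strand), the cochaperone of PGR, was at 772, 626 and 446 CPM in the controls against 1160 (*Gp130* ecKO 1), 714 and 884 CPM in *Gp130* ecKO. Control 1 lay above *Gp130* ecKO 2, so the groups overlapped. It had a log2 fold change of 0.58 (SE 0.29, 95% interval −0.09 to 1.26, adjusted p = 0.252, edgeR quasi-likelihood), and 0.62 without control 2 and 0.38 without *Gp130* ecKO 1. In TPM, which also divides by the length estimated in each uterus, *Fkbp4* was 377 to 591 in the controls and 716 to 1059 in *Gp130* ecKO, without overlap.

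The coactivators of the p160 family, which bind ligand-bound receptors and bring in histone acetyltransferases, also had overlapping groups. *Ncoa1* (ENSMUSG00000020647, GRCm39 chr12:4297361-4557712, minus strand) was at 28.9, 31.5 and 21.0 CPM in the controls against 31.1, 36.5 and 19.6 CPM in *Gp130* ecKO. This is a log2 fold change of 0.10 (95% interval −0.55 to 0.75, adjusted p = 0.843), the smallest of the 9. Its sign turned to −0.056 without control 3 and to −0.094 without *Gp130* ecKO 2. *Ncoa2* (ENSMUSG00000005886, GRCm39 chr1:13209329-13444307, minus strand) was at 63.9, 77.9 and 81.5 CPM in the controls against 137, 112 and 64.1 CPM in *Gp130* ecKO. Here *Gp130* ecKO 1 and 2 were above every control and *Gp130* ecKO 3 lay at the level of control 1. The log2 fold change was 0.49 (95% interval −0.16 to 1.14, adjusted p = 0.309, edgeR quasi-likelihood), falling to 0.25 when *Gp130* ecKO 1 was left out and reaching 0.77 when *Gp130* ecKO 3 was. Leaving out control 2 gave 0.25 for *Ncoa1* and 0.56 for *Ncoa2*. The ratio of *Ncoa1* to *Ncoa2* CPM was 0.453, 0.404 and 0.258 in the controls and 0.227, 0.325 and 0.307 in *Gp130* ecKO, a mean log2 difference of −0.35 (p = 0.3, exact two-sided permutation test). It was −0.19 without control 1 and without *Gp130* ecKO 1, and −0.60 without control 3.

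**Figure D2:**
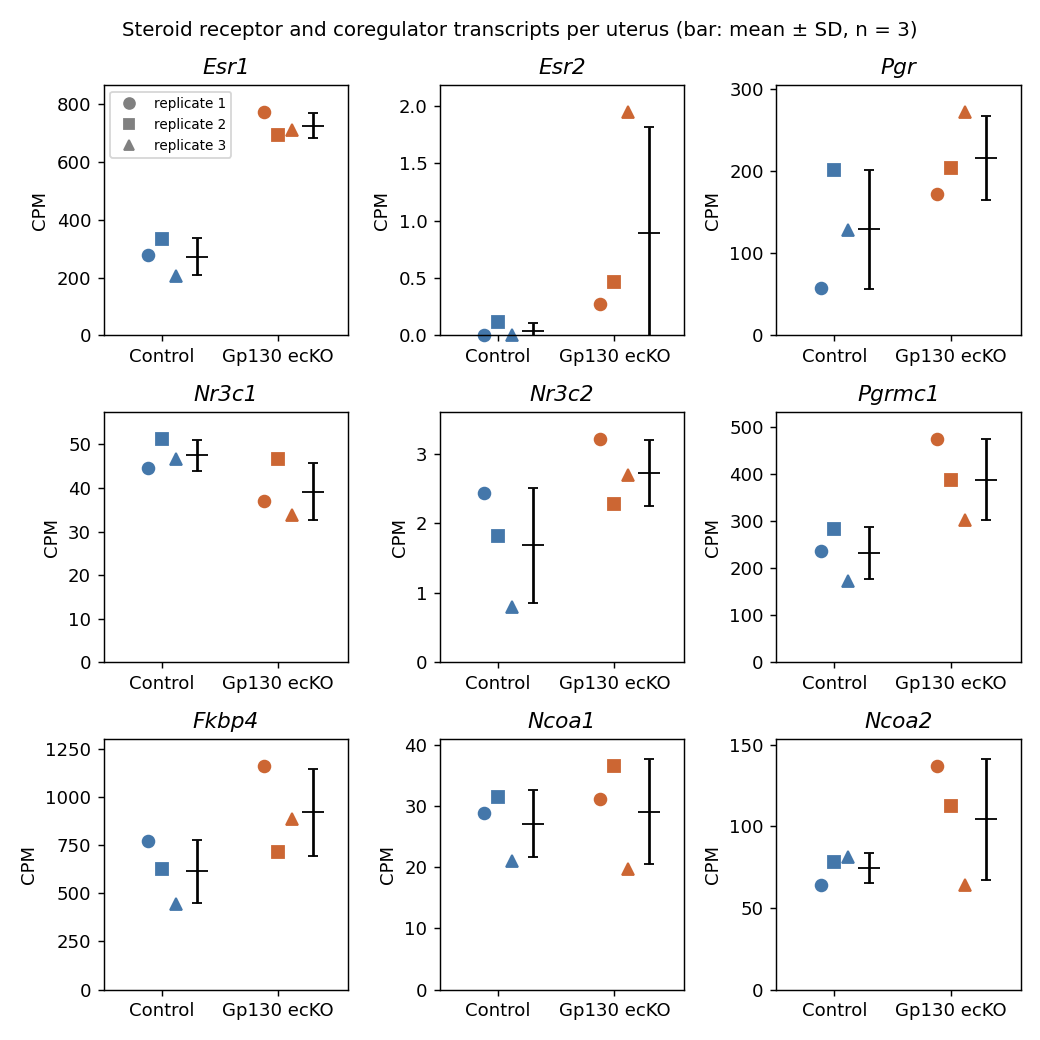
CPM of each of the 9 genes in every uterus, on axes that begin at 0, with the mean and SD of each group (n = 3) beside the points. *Esr1*, *Esr2* and *Pgrmc1* were higher in each *Gp130* ecKO uterus than in each control, and the other 6 overlapped.

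Counted over the receptors and coregulators, 0 of the 8 tested genes passed an adjusted p of 0.05 in edgeR's quasi-likelihood test, in which 0.157% of all tested genes passed. At an unadjusted p under 0.05 there were 2 of 8, *Esr1* and *Pgrmc1*, and 25.0% of all tested genes were below it. By the exact test, the likelihood ratio test and DESeq2, *Esr1* was the 1 of the 8 that passed, where 8.99%, 9.50% and 13.4% of all genes did. Without control 2, *Esr1* was again the 1 called, with 5.41% of all genes. Fitted with no filter, so that all 9 were tested, the quasi-likelihood test called *Esr1* alone (adjusted p = 0.0420, background 0.351%), and the exact test and DESeq2 each called 2 of the 9, *Esr1* and *Esr2*, with 3.58% and 7.00% of all genes called. Groups did not overlap in CPM for *Esr1* and *Pgrmc1* among the 8 tested genes, and for 31.3% of all tested genes. In TPM, 4 of the 8 tested genes (*Nr3c2* and *Fkbp4* beside *Esr1* and *Pgrmc1*) did not overlap, all higher in *Gp130* ecKO, as did not 28.7% of all tested genes. *Nr3c2* and *Fkbp4* overlapped in CPM, and their TPM rests on the lengths estimated in each uterus. The untested *Esr2* did not overlap in either unit. The median log2 fold change of the 8 was 0.62, beside −0.05 over all tested genes, and 7 of the 8 were positive.

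**Figure D3:**
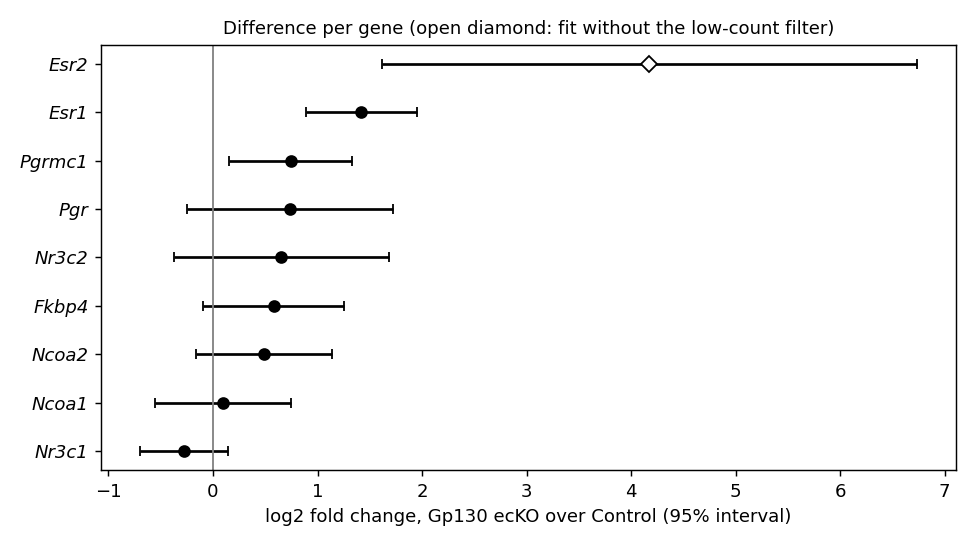
Log2 fold change of *Gp130* ecKO over control for each of the 9 genes, with the 95% interval from edgeR's quasi-likelihood fit, and an open diamond for *Esr2*, fitted without the filter. The intervals of *Esr1* (0.89 to 1.95), *Pgrmc1* (0.16 to 1.33) and *Esr2* (1.62 to 6.73) lie above 0.

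A length is also listed for each gene in each uterus. Where the gene has counts, it is the mean length of its transcripts weighted by their estimated abundance. A shift in it then means that the estimated mix of transcripts differed. *Pgrmc1* has 1 transcript and no such mix. The ranges of transcript length below come from GENCODE M39, which differs from the authors' annotation. The *Pgrmc1* transcript, for example, has 1888 bases there and 1857 in the deposited values. For *Esr1*, with 10 transcripts of 719 to 6460 bases, the length was 6005, 6085 and 6143 bases in the controls and 5784, 5733 and 5948 bases in *Gp130* ecKO. The *Pgr* length, from 4 transcripts of 3068 to 6893 bases, was 6675, 6664 and 6734 bases in the controls and 6494, 6357 and 6561 bases in *Gp130* ecKO. In each of these receptors, every *Gp130* ecKO uterus was shorter than every control, by a mean of 256 bases for *Esr1* and 220 bases for *Pgr*. *Ncoa2* went from 7745, 7349 and 7500 bases to 7004, 6707 and 7187 bases, and *Fkbp4* from 1685, 1599 and 1712 bases to 1596, 1577 and 1595 bases, also without overlap. The exact two-sided permutation p was 0.1 for each of these 4 genes, the lowest that 3 against 3 allows. Overlap was seen for *Nr3c1*, *Nr3c2*, *Ncoa1* and *Esr2*, and of these *Nr3c2* (5675, 5749 and 5675 bases against 4208, 3051 and 5675 bases) and *Esr2* rest on few counts. For *Esr2*, controls 1 and 3 had 0 counts, so their listed length of 3232 bases rests on no reads and its overlap describes no mix. Of the 8 genes with several transcripts, 4 were thus shorter and 0 longer without overlap, or 4 of the 7 that were tested. Among all 13575 tested genes with several transcripts, 9.40% were shorter in *Gp130* ecKO without overlap and 9.36% longer. Of the 1215 that are over 5000 bases long, 11.8% were shorter without overlap. These estimates rest on single reads of 75 bases, and the part of the marker values given above in the lengths was not tested.

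**Figure D4:**
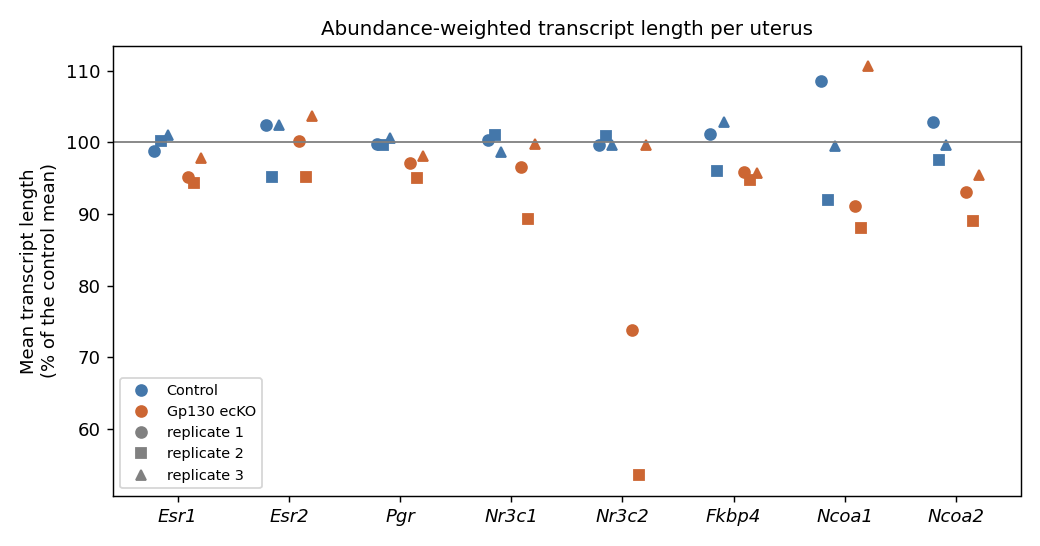
Mean transcript length of each gene with more than 1 transcript, as a percentage of its control mean, for every uterus. The points of *Esr1*, *Pgr*, *Fkbp4* and *Ncoa2* in *Gp130* ecKO lie below all of their controls, and those of *Nr3c2* spread widest.

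Other receptors and coregulators were read from lists of genes. No gene on the lists of receptors, binding proteins, chaperones, coactivators, corepressors and targets named from here on passed an adjusted p of 0.05 in edgeR's quasi-likelihood test after the filter on low counts, and their counts at an unadjusted p under 0.05 stand against 25.0% of all genes. Fitted with no filter, where 0.351% of all genes passed, the same test called *Greb1* (adjusted p = 0.0295), *Irs1* (0.0373), *Alox15* (0.0393), *Areg* (0.0420) and *Paqr8* (0.0457) among the list genes named below. A value given for a gene without a unit is its log2 fold change. The membrane estrogen receptor *Gper1* had 0.607, 17.2 and 2.20 CPM in the controls against 31.2, 44.8 and 20.6 CPM in *Gp130* ecKO (log2 difference 2.25, adjusted p = 0.210). Control 2 had most of the control signal, and without it the log2 fold change was 4.65 with an adjusted p of 0.0173. The orphan receptor *Esrra*, at 0.41, had overlapping groups, and moved to 0.24 without control 1, 0.89 without control 2 (adjusted p = 0.0551) and 0.26 without control 3. The orphan receptor *Esrrb*, which fell below the filter, was listed at 0 in the controls and at 0.814, 1.62 and 0.166 CPM in *Gp130* ecKO. Its relative *Esrrg* was scarce, at 0.445, 0.347 and 0.0667 CPM in the controls against 0.814, 1.19 and 1.24 CPM in *Gp130* ecKO. *Esrrg* was at 1.79 (adjusted p = 0.118, edgeR quasi-likelihood). It passed in the exact test and the likelihood ratio test, where 8.99% and 9.50% of all tested genes did, but not in DESeq2. Of the 4 tested genes of this list, 1 was higher and 0 lower at the unadjusted level, with a median of 1.10.

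Among 7 membrane progestin receptors and progesterone-binding proteins, 2 were higher and 2 lower at the unadjusted level, with a median of 0.13. The progestin receptor *Paqr8* had 79.2, 73.4 and 98.9 CPM in the controls against 32.5, 35.6 and 24.1 CPM in *Gp130* ecKO. These groups were well apart, in the direction opposite to *Pgrmc1*, with a log2 fold change of −1.45 (SE 0.21, adjusted p = 0.0548, edgeR quasi-likelihood). *Paqr8* passed in the exact test, the likelihood ratio test and DESeq2, as the only gene of its list. This is 1 of 7, where these tests called 8.99%, 9.50% and 13.4% of all tested genes. The progestin receptors *Paqr5* and *Paqr7* were at 0.67 and −0.43 (the latter −0.28 without control 2), and *Nenf*, a relative of *Pgrmc1*, at −0.56 (−0.37 without *Gp130* ecKO 2). Of 16 chaperones and cochaperones of the receptors, 1 was higher and 3 lower at the unadjusted level, with a median of −0.18. The immunophilin *Ppid* was at −0.89 (adjusted p = 0.112, and −0.58 without control 3), *Fkbp5*, the counterpart of *Fkbp4* at the glucocorticoid receptor, at 0.73 (0.10 without *Gp130* ecKO 1 and 1.16 without control 2), the HSP70-binding *St13* at 0.64 and the HSP90 cochaperone *Ptges3* at −0.45. The exact test called 0 of these 16, the likelihood ratio test called *Ppid*, and DESeq2 called *Ppid* and *St13*, where these tests called 8.99%, 9.50% and 13.4% of all tested genes. The 2 of 16 in DESeq2 are thus near its background.

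Beside *Ncoa1* and *Ncoa2*, 22 other coactivators were tested, with 2 higher and 2 lower at the unadjusted level and a median of −0.11. The acetyltransferase *Kat2b* was at 110, 74.7 and 114 CPM in the controls against 48.8, 61.3 and 51.9 CPM in *Gp130* ecKO (log2 difference −0.88, adjusted p = 0.0865). It was the 1 of 22 that passed in the exact test, the likelihood ratio test and DESeq2. These tests called 8.99%, 9.50% and 13.4% of all tested genes. *Ube3a* was at 0.55, *Ncoa4* at 0.51 and *Ppargc1a* at 0.50 (0.15 without control 3, 0.09 without *Gp130* ecKO 1 and 0.81 without *Gp130* ecKO 2). Of 18 corepressors, 4 were higher and 0 lower at the unadjusted level, with a median of 0.07. The ligand-dependent corepressor *Lcor* had 6.92, 9.37 and 10.1 CPM in the controls against 28.9, 27.0 and 14.8 CPM in *Gp130* ecKO (log2 difference 1.43, adjusted p = 0.0807). *Nrip1* (RIP140), a corepressor that estrogen also induces, had 33.9, 89.6 and 60.6 CPM in the controls against 172, 168 and 133 CPM in *Gp130* ecKO (1.36, adjusted p = 0.0918). These groups did not overlap, and both genes passed in the exact test, the likelihood ratio test and DESeq2. They were 2 of 18, beside the shares of all tested genes just given. *Ncor1* was at 0.63 and the deacetylase *Hdac1* at 0.58.

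Genes known as targets of the receptors were read in the same way. Several of them (*Ltf*, *Irs1*, *Areg*, *Alox15* and *Sgk1*) were singled out by the study in these same uteri, so their lists are not independent evidence of a direction. Of 11 estrogen receptor targets, 2 were higher and 1 lower at the unadjusted level, with a median of 0.32. *Greb1*, an ERα cofactor and target, had 3.72, 3.70 and 5.27 CPM in the controls against 34.2, 15.8 and 34.3 CPM in *Gp130* ecKO, with a log2 fold change of 2.74 (adjusted p = 0.0548, edgeR quasi-likelihood). The insulin receptor substrate *Irs1* was at 2.79 (adjusted p = 0.0548), without overlap. With a block for the replicate number it was at 2.86 and passed (adjusted p = 0.0327, edgeR quasi-likelihood). *Greb1* and *Irs1* both passed in the exact test, the likelihood ratio test and DESeq2. They were 2 of the 11, where these tests called 8.99%, 9.50% and 13.4% of all tested genes. The lactoferrin gene *Ltf*, whose locus carries the iCre, spread from 13.8 to 281 CPM within *Gp130* ecKO and overlapped with the controls. *Lcn2*, at −0.81, turned to 0.65 without control 1 and was at −1.29 without control 2, −0.28 without *Gp130* ecKO 1 and −1.89 without *Gp130* ecKO 3.

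Of 15 progesterone receptor targets, 0 were higher and 9 lower at the unadjusted level, 7 of them without overlap, where 15.6% of all tested genes were lower without overlap. The median was −0.91. *Pgr* itself was at 0.74, with overlapping groups and a 95% interval that spans 0 (−0.25 to 1.73). The growth factor *Areg* had 34.1, 16.1 and 127 CPM in the controls against 0.136, 1.73 and 1.04 CPM in *Gp130* ecKO (log2 difference −5.89, adjusted p = 0.0635, edgeR quasi-likelihood). The lipoxygenase *Alox15* had 1955, 690 (control 2) and 2790 (control 3) CPM in the controls against 283, 218 and 173 CPM in *Gp130* ecKO (−3.01, adjusted p = 0.0633). *Bmp2*, a signal in decidualization, was at −2.39 (−1.53 without control 3) and the transcription factor *Cebpb* at −1.63 (−0.98 without control 1). *Areg* moved to −4.67 without control 3 and to −6.61 without *Gp130* ecKO 2. The exact test called 5 of the 15 and DESeq2 called 6, all lower, where 8.99% and 13.4% of all tested genes were called in either direction. Without control 2 the quasi-likelihood test called 4 lower and 1 higher, the last being *Gata2*. The list holds *Hand2*, which is also 1 of the 8 stromal markers, and genes of the epithelium such as *Areg* and *Alox15*. Stromal markers summed lower and epithelial markers higher in the same uteri, and their part in these values was not tested.

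Of 12 glucocorticoid receptor targets, 1 was higher and 1 lower at the unadjusted level (median 0.31). Of 8 tested mineralocorticoid receptor targets, 2 were higher and 0 lower (median 0.48). The kinase *Sgk1*, which stands on both lists, had 69.8, 68.5 and 25.1 CPM in the controls against 161, 478 and 518 CPM in *Gp130* ecKO (log2 difference 2.82, adjusted p = 0.0677, edgeR quasi-likelihood). The epithelial sodium channel subunit *Scnn1a* had 7.89, 21.2 and 4.33 CPM in the controls against 71.0, 55.1 and 30.5 CPM in *Gp130* ecKO (2.22, adjusted p = 0.0980), and the subunit *Scnn1b* was at −0.82 with overlap. Without control 2 they were at 3.10 and −0.14, and *Scnn1b* was at −1.41 without *Gp130* ecKO 2. *Sgk1* and *Scnn1a* passed in the exact test, the likelihood ratio test and DESeq2. They were 2 of the 8 mineralocorticoid receptor targets, where these tests called 8.99%, 9.50% and 13.4% of all tested genes. Other glucocorticoid targets were *Cdkn1a* at −1.44, which passed in DESeq2 alone of these tests, and *Zbtb16* at 0.91 (0.50 without *Gp130* ecKO 1). Without control 2, when 5.41% of all genes passed in the quasi-likelihood test, *Gper1*, *Paqr8*, *Ppid*, *Kat2b*, *Nrip1*, *Scnn1a*, *Greb1* and *Irs1* passed, beside the 5 progesterone receptor targets above.

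**Figure D5:**
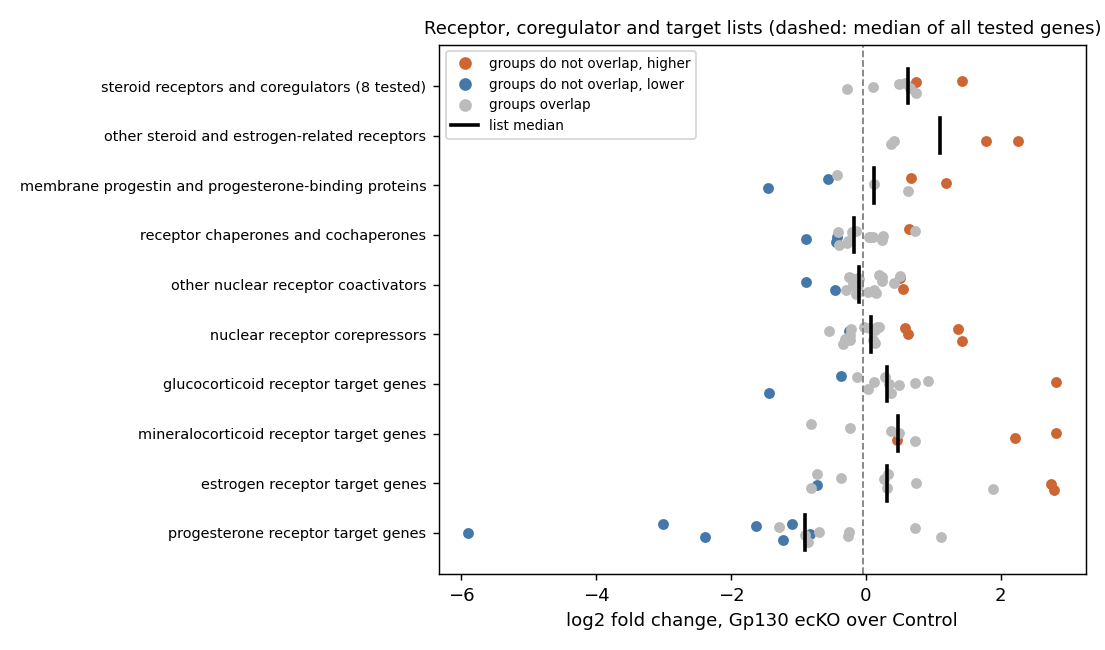
Log2 fold change of *Gp130* ecKO over control for every tested gene of each list (points, coloured by whether the CPM of the groups overlapped), with the list median as a bar and the median of all tested genes, −0.05, as a dashed line. The progesterone receptor targets lie mostly below 0 (median −0.91), and the steroid receptors and coregulators mostly above it (median 0.62).

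The genes whose log2(CPM + 0.5) followed that of *Esr1* most closely over the 6 uteri, of 16604 ranked, were *Nudt12* (Pearson r = 0.999), *Spg11* (r = 0.999) and *Mlph* (r = 0.998). These values are a description, and the 6 points share the difference between the groups. *Nudt12* was at 5.95, 6.59 and 4.80 CPM in the controls against 12.3, 11.7 and 11.9 CPM in *Gp130* ecKO. *Mlph*, the melanophilin gene, was at 2.59, 3.24 and 0.933 CPM against 18.1, 15.9 and 16.6 CPM. In each, as in *Esr1*, control 3 was the lowest uterus and control 2 the highest control.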

How the data were processed

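RNA of 3 control and 3 *Gp130* ecKO uteri was measured with poly(A) libraries that keep strand, sequenced from 1 end for 75 bases. According to the methods and the submitters' processing notes, the authors trimmed reads with fastp 0.23.2, removed ribosomal RNA with SortMeRNA, mapped to GRCm39 with STAR 2.7.10a and estimated counts with RSEM 1.3.3. RSEM shares reads among genes they fit. In GENCODE M39, 0.149% of the 75-base stretches of *Esr1* transcripts, 0.258% of those of *Ncoa1* and 0.0183% of those of *Ncoa2* occur in other genes. The annotation version, the use of strand in counting and the edgeR test are not given in the sources used here. The authors deposited expected counts, which are not normalized, and TPM and FPKM, which they scaled for length and depth. FPKM was not used, and TPM served only to compare levels between genes and as an alternative.

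Rounded expected counts were tested with edgeR 4.0.16 in R 4.3.3 (filterByExpr, TMM, quasi-likelihood F test without the legacy form, Benjamini-Hochberg adjustment over all tested genes). A gene was called at an adjusted p under 0.05. Standard errors were obtained from the log2 fold change and F, as their ratio with F under a square root. *Esr2* was fitted without the filter. Symbols and GRCm39 coordinates came from GENCODE M39, which holds 56017 of 56748 identifiers. Permutation tests were exact, two-sided and run on log2(CPM + 0.5), or on lengths and log2 ratios. From each list, genes past the threshold and up to 4 others of at least 1 mean CPM with the largest log2 fold change were named, and *Esrrb*, *Esrrg*, *Hand2* and *Gata2* were named after their values were seen. The genes and lists were chosen with earlier results of these data known. Alternatives were the exact and likelihood ratio tests, DESeq2 1.42.0, the legacy form, other normalizations and filters, unrounded counts, deposited TPM, leaving out each uterus, and a block for the replicate number. DESeq2 and the exact test with no filter were added after seeing the data. 1 gene of the lists is not reported here. The scripts were tested on simulated data. No pair of libraries of a group had nearly identical counts.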

Additional observations from a re-analysis of the deposited data

How the results depend on the processing

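With all genes counted at an adjusted p under 0.05 and more than 2-fold change, edgeR's quasi-likelihood test called 26 genes, its legacy form 7, the exact test 1252, the likelihood ratio test 1317, DESeq2 1546, and the quasi-likelihood test with no filter 105. With no filter, DESeq2 called 1593 and the exact test 993. Leaving out 1 uterus gave 1 to 897, the highest without control 2. At an adjusted p under 0.05, 0 of the steroid receptors and coregulators were called in the quasi-likelihood test, 1 in the exact test, the likelihood ratio test, DESeq2 and the quasi-likelihood test with no filter, 2 in DESeq2 and the exact test with no filter, and 0 to 1 with a uterus left out.

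*Esr1* passed with log2 fold changes of 1.42 in the exact and the likelihood ratio test, 1.43 in DESeq2, 1.45 with no filter in the quasi-likelihood test, DESeq2 and the exact test, and 1.25 to 1.62 with a uterus left out, where it passed without control 2. *Esr2*, fitted with no filter throughout, passed with 4.24 in the exact and the likelihood ratio test and 4.42 in DESeq2, and lay at 2.92 to 7.36 with a uterus left out. The sign of *Ncoa1* turned without control 3 (−0.056) and without *Gp130* ecKO 2 (−0.094), in a range of −0.094 to 0.34, and that of *Lcn2* turned to 0.65 without control 1, within −1.89 to 0.65. The log2 fold changes with a uterus left out were 0.41 to 1.26 for *Pgr*, 0.57 to 0.95 for *Pgrmc1*, 0.38 to 0.80 for *Fkbp4*, 0.25 to 0.77 for *Ncoa2*, 0.36 to 1.01 for *Nr3c2* and −0.42 to −0.15 for *Nr3c1*. Genes of the 9 whose groups did not overlap numbered 3 in CPM, 5 in TPM, which adds *Fkbp4* and *Nr3c2*, and 3 to 6 with a uterus left out (5 without control 1 and 6 without *Gp130* ecKO 2). Of the 8 tested, 2 did not overlap in CPM (31.3% of all tested genes), 4 in TPM (28.7%), and 2 to 5 with a uterus left out, where 36.5% to 45.9% of all tested genes did not. The cause was not tested.

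Deviations of libraries with the same number correlated at r = 0.104, 0.0691 and −0.196, and those with different numbers at −0.311 to 0.220. With 3 libraries per group, these values cannot decide whether the numbers pair the libraries. With the replicate number as a block, 6 genes were called, *Esr1* had a log2 fold change of 1.45 with an adjusted p of 0.0866, and no call of the 9 was gained. The estrogen receptor target *Irs1* passed with the block (2.86, adjusted p = 0.0327, edgeR quasi-likelihood). Other normalizations moved the median of all genes by −0.07 to 0.02 on the log2 scale. Depth limits *Esr2*, with 0 to 3 counts in the controls, and *Nr3c2*, with 12 in control 3.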
